A study of Brassica oleracea var. italica with 18 samples.

Results

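Enzymes of plant secondary metabolism were followed in the shoot meristem of heat-tolerant (HT) and heat-sensitive (HS) broccoli, through 4 probes of 43603 on the array. The probes were picked by name because earlier results of these arrays had shown higher signal in the HT genotype. By annotation they stand for a strictosidine synthase-like protein (A_46_P306175) and beta-carotene hydroxylase 1 (BETA-OHASE 1, A_46_P146774), the latter not settled. The others stand for a 4-coumarate-CoA ligase-like protein (4CL-like, A_46_P363565) and flavonoid 3'-hydroxylase (TT7, A_46_P003061). Since the difference between the genotypes chose the probes, it is described here and not tested. The difference between growth temperatures, averaged over both genotypes, is not the one that chose the probes, and it was tested. Earlier results of these arrays were known when probes and tests were chosen, so these tests are not fully independent of the choice. All 4 probes were well above background on all 18 arrays, and no spot was saturated.

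The samples were shoot meristems of broccoli, *Brassica oleracea* var. italica, with n = 3 arrays for each of HT and HS at 15, 22 and 27 °C. HT is the inbred line B295 and HS is BR1 op, so each genotype is a single line and their difference is that between this pair of lines. All plants had an 18 h light and 6 h dark day and stood at 22 °C for 30 days in soil. They were then moved to 15, 22 or 27 °C, for 2 weeks according to the sample labels and for 10 days according to the methods. The study describes the array as one of *Brassica napus*, a relative, and its methods do not settle whether an array holds 1 plant or a pool.

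Plants make phenylpropanoids by turning phenylalanine into cinnamic acid, then coumaric acid, then coumaroyl-CoA, with the last step catalysed by 4-coumarate-CoA ligase. Coumaroyl-CoA feeds both lignin and the flavonoids. TT7 adds a hydroxyl group to the B-ring of flavonoids, on the way to quercetin and to the red and blue anthocyanins made downstream by dihydroflavonol reductase. BETA-OHASE 1 hydroxylates the rings of beta-carotene in the xanthophyll branch of carotenoid synthesis. Strictosidine synthase joins tryptamine and secologanin in alkaloid-producing plants such as *Catharanthus*, while its relatives in *Arabidopsis* are known by sequence likeness.

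The annotations were not equally firm. TT7 is the probe of a *B. napus* flavonoid 3'-hydroxylase mRNA (target DQ324379) and is paired with *Arabidopsis* AT5G07990. The 4CL-like probe has the target TC102675 in the scanner files but TC205279 in the supplementary annotation, which pairs it with AT1G20500, 4-coumarate--CoA ligase-like 4, a relative of the ligases of the main route. The strictosidine synthase-like probe (target H74760) is paired with AT3G57010. The BETA-OHASE 1 probe is paired with AT4G25700, but its target, AF499032, is described as a *B. napus* CBF-like protein mRNA, CBF being a family of cold-induced transcription factors. Which of these RNAs the BETA-OHASE 1 probe measured is therefore not settled. Each of the 4 was the only probe for its target, so copies of a gene cannot be told apart, nor can a difference in RNA level be told apart from a difference between the lines in the sequence under the probe.

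The arrays lay on 5 slides. The 22 and 27 °C arrays shared 3 slides, and the 15 °C arrays had 2 slides of their own. A difference of 15 °C from the warmer temperatures thus cannot be told apart from one between slides, whereas HT against HS and 27 against 22 °C could be compared within slides. HT and HS also held different positions on every slide. On the 3 slides of 22 and 27 °C, the 22 °C arrays always lay at positions 3 and 4 and the 27 °C arrays at 1 and 2. Neither difference can thus be told apart from one between slide positions. On each array, 63.9% to 69.78% of probes were well above background. Among defining genes of the meristem, CUC1, a boundary gene of the shoot apex, was the only 1 of 7 loci that could be read, at log2 intensities of 6.01 to 8.74. A light-harvesting gene of green tissue (AT3G27690) lay between 11.78 and 13.47, and its part in the results was not tested.

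All signals below are log2 normalised intensities, in the order of replicates 1, 2 and 3. The strictosidine synthase-like probe read 9.35, 9.98 and 9.32 in HT at 15 °C, 8.84, 9.38 and 8.29 at 22 °C, and 8.37, 8.81 and 8.19 at 27 °C. In HS it read 8.73, 8.89 and 8.02 at 15 °C, 6.90, 6.56 and 6.56 at 22 °C, and 5.68, 6.90 and 6.08 at 27 °C. All HT arrays lay above all HS arrays of the same temperature, and the HS arrays at 22 and 27 °C formed a group below every other array. The mean signal was 9.55 ± 0.37 (SD, n = 3) in HT at 15 °C, the highest group, and 6.22 ± 0.62 in HS at 27 °C, the lowest. As geometric mean intensities these groups stood at 750 and 74.5 units. In the order from HT at 15 °C through HT at 22 °C, HS at 15 °C, HT at 27 °C and HS at 22 °C to HS at 27 °C, the step of 1.78 between HT at 27 °C and HS at 22 °C was the only one where neighbouring groups did not overlap.

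The BETA-OHASE 1 probe was brighter and varied less. It read 10.93, 10.57 and 10.89 in HT at 15 °C, 10.58, 10.06 and 10.21 at 22 °C, and 11.12, 10.79 and 10.21 at 27 °C. In HS it read 10.11, 9.59 and 9.99 at 15 °C, 9.30, 8.87 and 9.42 at 22 °C, and 9.62, 9.67 and 9.74 at 27 °C. The genotypes did not overlap at any temperature, and in each genotype 22 °C had the lowest mean. The group means fell in the order HT at 15 °C (10.80 ± 0.20), HT at 27 °C (10.71 ± 0.46), HT at 22 °C (10.28 ± 0.26), HS at 15 °C (9.90 ± 0.27), HS at 27 °C (9.68 ± 0.06) and HS at 22 °C (9.20 ± 0.29). Of these neighbours, HS at 27 °C and HS at 22 °C alone did not overlap.

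The 4CL-like probe was the brightest of the 4. It read 11.57, 11.38 and 11.46 in HT at 15 °C, 11.20, 11.04 and 11.18 at 22 °C, and 10.89, 10.89 and 10.68 at 27 °C, so that the HT arrays stepped down with temperature without overlap. In HS it read 10.73, 11.15 and 10.88 at 15 °C, 9.91, 10.61 and 9.73 at 22 °C, and 10.45, 10.14 and 9.53 at 27 °C. The HS arrays at 22 and 27 °C spread more widely (SD 0.46 and 0.47) than the HT arrays at the same temperatures (SD 0.09 and 0.12), and lay below all HT arrays. HT at 15 °C (mean 11.47 ± 0.09) stood clear of HT at 22 °C (11.14 ± 0.09), which was followed by HS at 15 °C (10.92 ± 0.22) and HT at 27 °C (10.82 ± 0.12). HS at 22 °C (10.08 ± 0.46) and HS at 27 °C (10.04 ± 0.47) overlapped each other and nothing else.

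TT7 had another shape. It read 8.10, 8.63 and 10.02 in HT at 15 °C, 8.43, 8.01 and 7.67 at 22 °C, and 9.28, 8.66 and 8.86 at 27 °C. In HS it read 8.16, 8.62 and 9.15 at 15 °C, 7.10, 7.12 and 6.01 at 22 °C, and 7.39, 7.81 and 7.69 at 27 °C. At 15 °C the genotypes overlapped fully, whereas at 22 and 27 °C every HT array lay above every HS array. HT at 27 °C (8.93 ± 0.32) and HT at 15 °C (8.91 ± 0.99) had nearly the same mean, and HS at 22 °C (6.74 ± 0.64) was the only group that did not overlap its neighbour in the order. Replicate 3 gave the highest 15 °C value in both genotypes, and these 2 arrays shared a slide that held no other array used here.

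**Figure D1:**
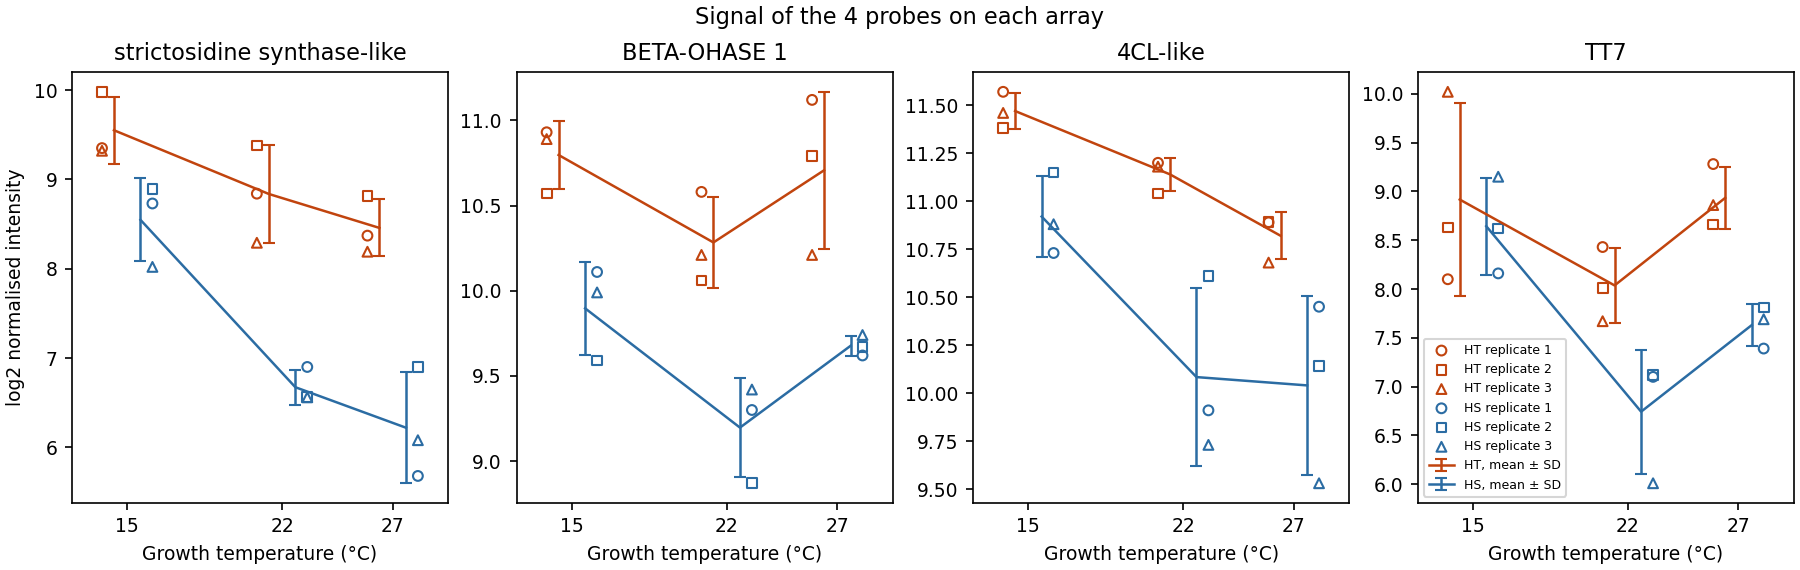
Log2 normalised intensity (vertical axis) of each probe against growth temperature in °C (horizontal axis), with 1 symbol for each array and replicates 1, 2 and 3 as circle, square and triangle. Lines join group means and bars show the SD (n = 3). HT lies above HS everywhere except for TT7 at 15 °C, where the 2 genotypes overlap.

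The genotype difference was given as HT minus HS on the log2 scale, with the standard error of the limma fit. For the strictosidine synthase-like probe it was 1.01 at 15 °C, 2.16 at 22 °C and 2.24 at 27 °C (SE 0.34 each), that is 2.01-fold, 4.47-fold and 4.72-fold. It thus widened by 1.16 from 15 to 22 °C and by a further 0.08 from 22 to 27 °C. For TT7 the difference was 0.27 at 15 °C, 1.29 at 22 °C and 1.30 at 27 °C (SE 0.44 each), or 1.21-fold, 2.45-fold and 2.46-fold, a widening of 1.02 from 15 to 22 °C. The TT7 value at 15 °C was smaller than its SE, and it turned to -0.28 without replicate 3 of HT at 15 °C.

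BETA-OHASE 1 kept nearly the same distance between the genotypes at each temperature. Its HT minus HS difference was 0.90, 1.09 and 1.03 at 15, 22 and 27 °C (SE 0.22 each), between 1.86-fold and 2.13-fold. The 4CL-like difference was 0.55, 1.06 and 0.78 (SE 0.23 each), between 1.47-fold and 2.08-fold. The changes of these differences between temperatures were at most 0.51 in size, against 1.02 to 1.23 for the strictosidine synthase-like probe and TT7 between 15 °C and either warmer temperature. No test was made of these changes, because they are built from the difference that chose the probes.

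Non-overlap of this kind was common on the array. All 3 HT arrays lay above all 3 HS arrays for 20.2% of probes at 15 °C, 20.1% at 22 °C and 22.5% at 27 °C, and the 4 probes had been chosen from that side. Within slides, HT was paired with HS of the same temperature and replicate, which gave 9 pairs. HT was higher in 9 of 9 pairs for the strictosidine synthase-like probe (mean 1.80 ± 0.72, SD), BETA-OHASE 1 (1.01 ± 0.31) and 4CL-like (0.80 ± 0.42), and 16.9% of all probes did the same. TT7 was higher in 8 of 9 pairs (0.96 ± 0.66), with 15 °C pairs of -0.06, 0.01 and 0.87. The share of all probes with 8 of 9 was not counted.

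With normexp background correction the strictosidine synthase-like difference narrowed to 1.60 at 22 °C and 1.53 at 27 °C. This was the dimmest probe in HS at these temperatures, at geometric mean intensities of 102 and 74.5, where the offset of 50 units added by that correction is largest relative to the signal.

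**Figure D2:**
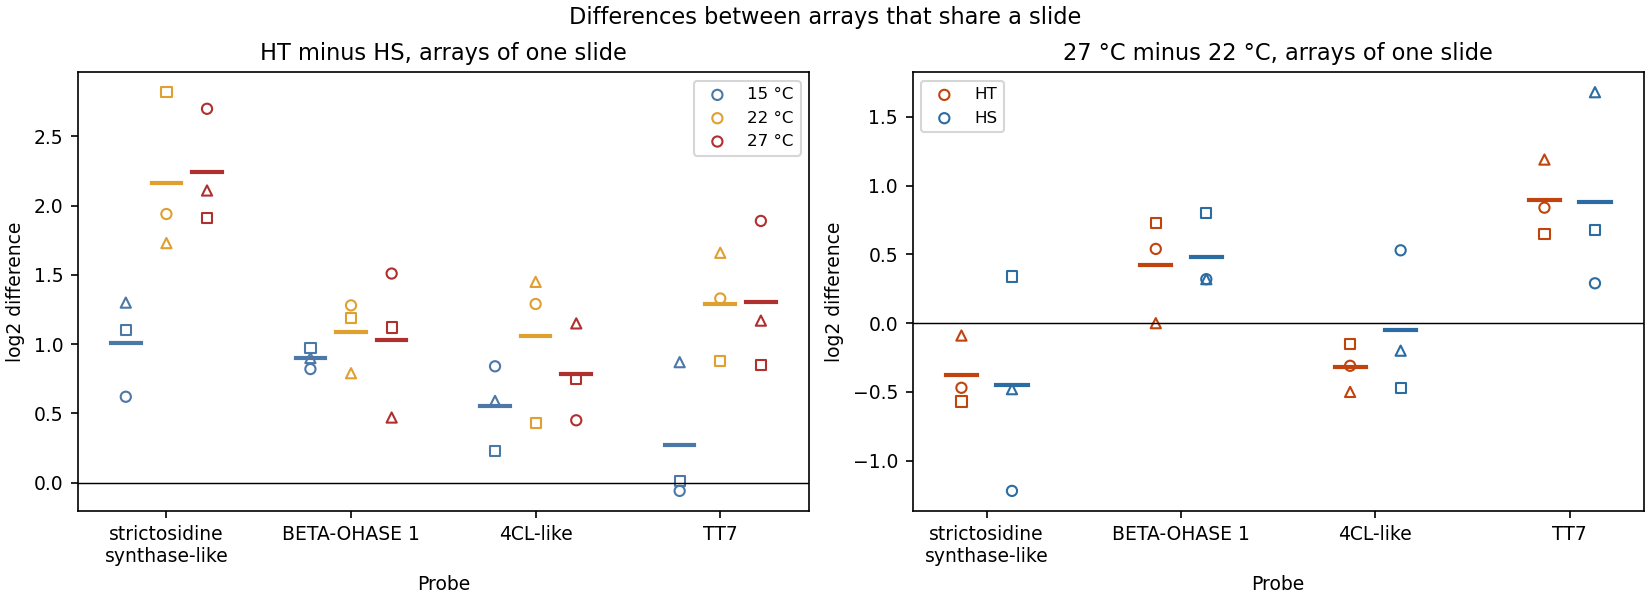
Log2 differences between arrays of the same slide (vertical axis) for each probe (horizontal axis), with circle, square and triangle for replicates 1, 2 and 3 and a bar for the mean. The left panel gives HT minus HS at 15, 22 and 27 °C, where 35 of the 36 points lie above 0. The right panel gives 27 minus 22 °C in HT and HS, where all 6 TT7 points lie above 0.

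Growth temperature was compared next, with both genotypes averaged. At 22 °C all 4 probes were lower than at 15 °C. The strictosidine synthase-like mean fell from 9.05 to 7.75, a change of -1.29 (SE 0.24, 2.45-fold, adjusted p = 0.0023 in limma with Benjamini-Hochberg adjustment over all probes). TT7 fell from 8.78 to 7.39, by 1.39 (SE 0.31, 2.62-fold, adjusted p = 0.00697). BETA-OHASE 1 fell from 10.35 to 9.74, by 0.61 (SE 0.16, 1.52-fold, adjusted p = 0.0167), and 4CL-like from 11.20 to 10.61, by 0.58 (SE 0.16, 1.5-fold, adjusted p = 0.0242). The count was 4 of 4, where 8.57% of all probes were called lower and 8.3% higher. The 6 arrays of one temperature overlapped the 6 of the other for each probe. Within HT alone 22 and 15 °C overlapped for all but 4CL-like, and within HS for none of the 4. How many of all probes did the same was not counted, so this is description only.

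The smaller pair of these changes depended on how slides entered the model. With slide as a random block, BETA-OHASE 1 changed by -0.62 (limma adjusted p = 0.0505) and 4CL-like by -0.58 (adjusted p = 0.0654), and neither passed. The strictosidine synthase-like probe (adjusted p = 0.00797) and TT7 (adjusted p = 0.0123) did. With scan day as a block, an alternative chosen after seeing the data, all 4 remained called, with changes of -1.56, -0.68, -0.82 and -1.67 for the strictosidine synthase-like probe, BETA-OHASE 1, 4CL-like and TT7. Among the 10 arrays of the second scan day, which hold all 6 at 15 °C but 2 at 22 °C, the strictosidine synthase-like change was -1.63 (adjusted p = 0.0429) and the 4CL-like change -0.74 (adjusted p = 0.035). There BETA-OHASE 1 (-0.53, adjusted p = 0.147) and TT7 (-1.94, adjusted p = 0.11) did not pass. The 4CL-like call was also lost when any 1 of 5 arrays was left out, with adjusted p-values of 0.0551 to 0.0601 without HT at 22 °C replicate 2, HS at 15 °C replicate 2 or HS at 22 °C replicate 1 or 3, and of 0.055 without HT at 15 °C replicate 1.

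At 27 °C the probes parted. The strictosidine synthase-like mean was 7.34, with a change of -1.71 from 15 °C on the log2 scale (SE 0.24, 3.27-fold, limma adjusted p = 0.000146), and 4CL-like was 10.43, a change of -0.77 (1.70-fold, adjusted p = 0.00273). Both calls held with slide as a random block, with scan day as a block and among the arrays of the second scan day. BETA-OHASE 1 at 10.19 differed from 15 °C by -0.15 (adjusted p = 0.528) and TT7 at 8.28 by -0.50 (adjusted p = 0.276), and neither passed. Thus 2 of 4 were lower at 27 than at 15 °C and none higher, where 14.7% of all probes were called lower and 13.6% higher.

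From 22 to 27 °C none of the 4 passed in the fit to all arrays, where 3.69% of probes were called higher and 3.45% lower. The differences were 0.89 for TT7 (SE 0.31, 1.85-fold, limma adjusted p = 0.113), 0.45 for BETA-OHASE 1 (SE 0.16, 1.37-fold, adjusted p = 0.111), -0.42 for the strictosidine synthase-like probe (adjusted p = 0.399) and -0.18 for 4CL-like (adjusted p = 0.588). These temperatures shared slides, so the arrays could be paired within line and slide. The 27 °C arrays always lay at other slide positions than the 22 °C arrays, and an effect of position was not tested. TT7 was higher at 27 °C in 6 of 6 pairs, by 0.84, 0.65 and 1.19 in HT and by 0.29, 0.68 and 1.68 in HS, and 9.59% of all probes were higher in 6 of 6. With slide as a fixed block in a fit to the 12 arrays at 22 and 27 °C, the TT7 difference of 0.89 had an SE of 0.20 and an adjusted p of 0.0379 in limma. It was also called with slide as a random block (adjusted p = 0.0481) and without HT at 15 °C replicate 3 (0.89, adjusted p = 0.0399), but not with scan day as a block (adjusted p = 0.0882) or among the arrays of the second scan day (1.43, adjusted p = 0.382). BETA-OHASE 1 was higher at 27 °C in 5 of 6 pairs (0.45 ± 0.30, SD) and was called only without HT at 27 °C replicate 3 (0.58, adjusted p = 0.0265), among the 18 fits that left out 1 array each. The strictosidine synthase-like probe and 4CL-like were each higher in 1 of 6 pairs. The shares of all probes with 5 or 1 of 6 were not counted.

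Within each genotype these changes are described without a test. From 15 to 22 °C the change of the strictosidine synthase-like probe was -0.72 for HT but -1.87 for HS, and that of TT7 was -0.88 for HT but -1.90 for HS. BETA-OHASE 1 changed by -0.51 and -0.70, and 4CL-like by -0.33 and -0.84, again in HT and HS. All 4 changes were thus larger in size in HS, which is the widening of the genotype difference seen from its other side. From 22 to 27 °C TT7 changed by 0.89 in HT and 0.88 in HS, and BETA-OHASE 1 by 0.42 and 0.48. At 27 °C TT7 in HT was back at its 15 °C mean (difference 0.01), while in HS it stayed 1.01 below it.

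Other genes of the same pathways were counted next, from 78 *Arabidopsis* loci in 5 lists: the phenylpropanoid core, flavonoid enzymes, flavonoid regulators, carotenoid synthesis and strictosidine synthase-like genes. Probes were found for 18 loci, which left 16 probes beside the 4. The probes with a locus had been selected by the study on these same arrays. Of the 16, 9 came from its co-expression modules, which it had correlated with temperature positively (brown, purple) or negatively (magenta, pink). The other 7 came only from its lists of probes that differed between the genotypes. Those lists took probes that differed at 1 or more temperatures, so a high HT signal at 15 °C could be enough to enter. Thus the counts, and the adjusted p-values of all 16 probes, are no independent evidence of a direction. Of the 16, 9 were called lower and 4 higher at 22 than at 15 °C (median -0.60, against 0.008 over all probes, of which 8.57% were called lower and 8.3% higher), and 8 lower and 5 higher at 27 than at 15 °C (median -0.87, against 0.004 over all probes, with 14.7% lower and 13.6% higher). From 22 to 27 °C, 3 were called higher and 1 lower (median 0.31, against -0.010 over all probes, with 3.69% higher and 3.45% lower).

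The flavonoid probes other than TT7 were all lower at 22 than at 15 °C, 4 of 4 (median -2.33), where 8.57% of all probes were called lower. As averages over the genotypes these values hold unequal parts, described below without a test. Dihydroflavonol reductase (DFR), the step after TT7 on the way to anthocyanins, had 2 probes. The first, A_46_P024261, changed by -2.39 (SE 0.28, limma adjusted p = 6.55e-05) and the second, A_46_P141119, by -2.27 (SE 0.21, adjusted p = 1.16e-05). UGT79B1, which decorates anthocyanins with a second sugar, changed by -2.49 (A_46_P258164, adjusted p = 2.65e-05). UGT73B2, a flavonoid glucosyltransferase, changed by -0.60 (A_46_P361315, adjusted p = 0.0225). The changes of the first 3 were larger in size than that of TT7 (-1.39), a difference that was not tested. From 15 to 22 °C the DFR probes changed by -3.63 and -3.56 in HT against -1.15 and -0.98 in HS, and UGT79B1 by -3.36 against -1.62. UGT73B2 changed by -1.11 in HT and by -0.09 (SE 0.23) in HS. The DFR and UGT79B1 probes came from the lists of genotype differences, so their fall from 15 °C is no independent evidence of a direction.

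At 27 °C the flavonoid probes no longer shared one direction against 15 °C. The DFR probes remained lower than at 15 °C, with changes of -1.58 (adjusted p = 0.000787 in limma) and -1.53 (adjusted p = 0.000111), as did UGT79B1 with -2.29 (adjusted p = 2.01e-05), whereas UGT73B2 was higher by 1.01 (adjusted p = 0.00042). The DFR values came mainly from HT, where 27 against 15 °C gave -2.90 (A_46_P024261) and -2.91 (A_46_P141119), against -0.25 (SE 0.39) and -0.15 (SE 0.30) in HS. From 22 to 27 °C the DFR probes differed by 0.82 (A_46_P024261, adjusted p = 0.104) and 0.74 (A_46_P141119, adjusted p = 0.0526), close to the 0.89 of TT7, and neither passed. UGT73B2 rose by 1.62 (adjusted p = 8.2e-05). MYB3, a repressor of phenylpropanoid genes in *Arabidopsis* and the only regulator with a probe, was higher at each warmer temperature. It rose by 1.04 from 15 to 22 °C (A_46_P371750, adjusted p = 0.00165) and by 0.75 from 22 to 27 °C (adjusted p = 0.0268). From 15 to 22 °C the change was 1.53 in HT and 0.54 in HS. The MYB3 and UGT73B2 probes came from the brown module, correlated positively with temperature.

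**Figure D3:**
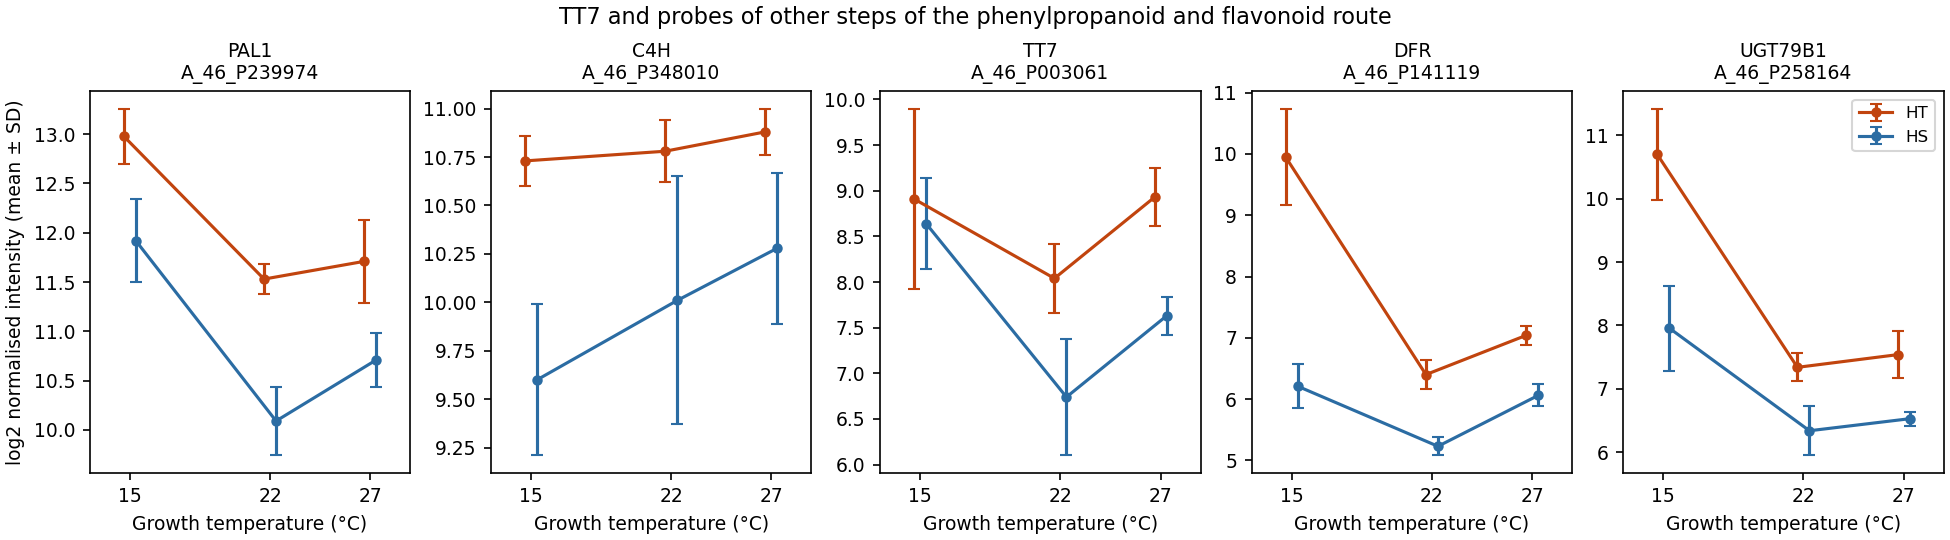
Group means of log2 normalised intensity (vertical axis, bars SD, n = 3) against growth temperature in °C (horizontal axis) for TT7 and for probes of PAL1, C4H, DFR and UGT79B1, in the order of the route. The HT mean of DFR (A_46_P141119) falls from 9.95 at 15 °C to 6.40 at 22 °C, whereas the TT7 means of HT and HS at 15 °C differ by 0.27.

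TT7 and DFR also differed in where the genotypes parted, given here as description. The HT minus HS difference of DFR was 3.61 (A_46_P024261) and 3.74 (A_46_P141119) at 15 °C, against 0.27 for TT7. At 22 °C it was 1.13 and 1.17, against 1.29 for TT7, and at 27 °C 0.95 and 0.98, against 1.30. UGT79B1 had differences of 2.74, 1.00 and 1.02 at 15, 22 and 27 °C. From 15 to 22 °C the genotype difference thus narrowed for DFR and UGT79B1 and widened for TT7, with little change from 22 to 27 °C. On the arrays of HT at 15 °C, A_46_P141119 read 9.22, 9.87 and 10.78, so replicate 3 was the highest there as it was for TT7.

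In the phenylpropanoid core, 4 of 7 probes beside 4CL-like were called lower and 1 higher at 22 than at 15 °C (median -0.99), where 8.57% and 8.3% of all probes were called. At 27 °C these counts were 3 and 1 (median -1.09), against 14.7% and 13.6%, and none was called from 22 to 27 °C. PAL1, the entry enzyme that deaminates phenylalanine, changed by -1.64 at 22 °C (A_46_P239974, limma adjusted p = 4.53e-05) and by -1.24 at 27 °C (adjusted p = 0.000183), both against 15 °C. C4H, the step before 4-coumarate-CoA ligase, differed by 0.23 (A_46_P348010, adjusted p = 0.499) and 0.42 (adjusted p = 0.147) and did not pass. HCT, which takes coumaroyl-CoA towards lignin, changed by -0.99 (A_46_P343310, adjusted p = 2.54e-05) and -1.15 (adjusted p = 2.76e-06), and C3H, its partner, by -0.35 (A_46_P147874, adjusted p = 0.0123) and -0.33 (adjusted p = 0.0112). Of 2 probes of PAL4, 1 was called at 22 °C (A_46_P039256, -1.36, adjusted p = 0.0377) and the other was not (A_46_P155504, -1.26, adjusted p = 0.123). Their changes were -2.14 and -2.16 in HT but -0.58 and -0.36 in HS. The HCT and C3H probes came from the magenta module, correlated negatively with temperature. The PAL1, PAL4 and C4H probes came from the lists of genotype differences.

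4CL5, a ligase of the main route, ran against the 4CL-like probe, but its probe came from the brown module, correlated positively with temperature. It rose by 0.93 at 22 °C (A_46_P241124, limma adjusted p = 0.029) and by 1.39 at 27 °C (adjusted p = 0.00148) over 15 °C, where 4CL-like fell by 0.58 and 0.77. At 22 °C the 4CL5 change was 1.53 in HT and 0.34 (SE 0.38) in HS. Its genotype difference was also of the opposite sign, with HT minus HS of -2.32, -1.13 and -1.11 at 15, 22 and 27 °C. The arrays of 4CL5 at 15 °C read 5.33, 6.40 and 6.39 in HT and 8.04, 8.81 and 8.23 in HS, without overlap.

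Both other strictosidine synthase-like probes rose where A_46_P306175 fell. They came from the purple module, which the study correlated positively with temperature, so their direction is no independent result. The probe of AT3G57020, the neighbouring locus by number, was higher by 1.22 at 22 °C (A_46_P150219, limma adjusted p = 0.00696) and by 2.12 at 27 °C (adjusted p = 6.31e-05). It was dim, with a mean of 4.12 in HS at 15 °C, where 1 of 3 arrays was well above background, so its changes from 15 °C rest in part on signal near background. The other groups were well above background on all arrays. The probe of AT2G41300 was higher by 0.42 (A_46_P087696, adjusted p = 6.8e-05) and 0.76 (adjusted p = 2.05e-07). Their HT minus HS differences at 22 °C were 0.55 and 0.40, against 2.16 for A_46_P306175.

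In the carotenoid list 2 probes could be set beside BETA-OHASE 1, whose own probe may instead measure a CBF-like RNA. Both came from modules correlated negatively with temperature (magenta for ABA4, pink for LUT2). ABA4, needed for making neoxanthin, fell against 15 °C, with -0.60 at 22 °C (A_46_P015836, limma adjusted p = 2.49e-05) and -0.93 at 27 °C (adjusted p = 2.23e-07). LUT2, the cyclase that opens the lutein branch, differed by -0.45 (A_46_P324030, adjusted p = 0.101) and fell by 0.81 at 27 °C (adjusted p = 0.00322). ABA4 also fell between 22 and 27 °C, by 0.33 (adjusted p = 0.00565), where BETA-OHASE 1 differed by 0.45 without passing. HT minus HS was negative for LUT2 at all temperatures (-0.31, -0.49 and -0.62) and positive for ABA4 (0.14, 0.33 and 0.11).

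**Figure D4:**
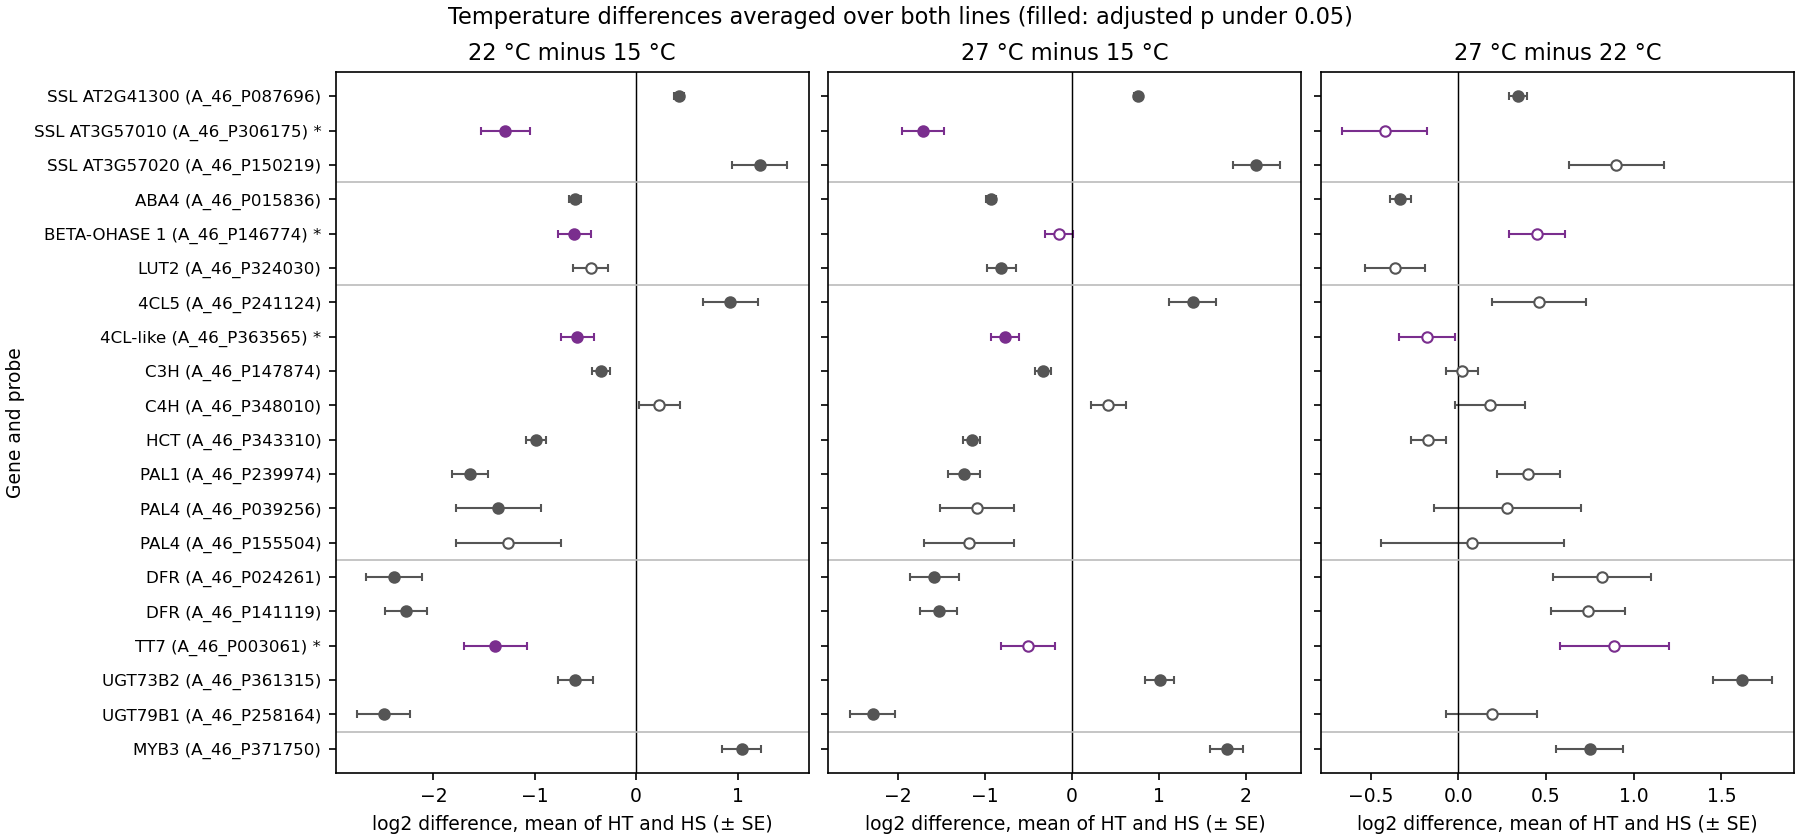
Log2 temperature differences averaged over both genotypes (horizontal axis, bars SE) for the 4 probes (asterisks, purple) and 16 pathway probes (vertical axis), one panel for each pair of temperatures. Filled circles have a limma adjusted p under 0.05. Most phenylpropanoid and flavonoid probes lie left of 0 against 15 °C. To the right of 0 lie 4CL5 and MYB3 (filled) and C4H (open) at both warmer temperatures, and UGT73B2 at 27 °C. Both other strictosidine synthase-like probes also lie there, filled, at both warmer temperatures.

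The genotype difference of these 16 probes is again description. The 7 probes from the lists of genotype differences were each higher in HT at every temperature, so selection on this difference enters the counts. HT was the higher genotype for 13 of 16 at 15 °C (median 0.59), 12 at 22 °C (median 0.43) and 12 at 27 °C (median 0.55), where the medians over all probes were 0.017, 0.047 and 0.039. PAL1 was higher in HT by 1.06, 1.44 and 1.00. C4H was higher in HT by 1.13, 0.77 and 0.60.

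Across the 18 arrays the 4 probes ran together, with Pearson's r of 0.65 to 0.85 between pairs, the highest for the strictosidine synthase-like probe and 4CL-like. All 4 were chosen for higher signal in HT, which by itself favours a positive r, so these values are description only. The arrays also share genotype, temperature and slide. Once group means were removed, r lay between -0.27 and 0.16. Arrays of one group thus showed little common deviation in these probes.

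The probes most like each of the 4 were found among 29606, by Pearson's r over the 18 arrays. For TT7 the closest was A_46_P072341 (r = 0.979), with group means of 10.51, 9.77 and 10.61 in HT and 9.86, 8.07 and 8.98 in HS at 15, 22 and 27 °C, followed by A_46_P194504 (0.913) and A_46_P020686 (0.901). BETA-OHASE 1 was nearest to A_46_P168099 (0.952), A_46_P322105 (0.949) and A_46_P063841 (0.946, AT1G73290, serine carboxypeptidase-like 5). The strictosidine synthase-like probe was nearest to A_46_P233449 (0.953), A_46_P328845 (0.949) and A_46_P185305 (0.944). 4CL-like was nearest to A_46_P190544 (0.947), A_46_P380078 (0.945, AT5G53890, the phytosulfokine receptor PSKR2) and A_46_P218239 (0.939). The other probes have no gene name in the tables used here.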

How the data were processed

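Cy3-labelled shoot meristem RNA was hybridised to 1-colour Agilent arrays, 3 for each line and temperature. The authors deposited scanner intensity values, already background-corrected by Feature Extraction 10.7.1.1 per the file headers and not normalized between arrays. The authors' own deposited log2 values, which served as an alternative, are shifted by the 75th percentile of each array and then centred per probe on its median. The methods name RMA, a t-test and GeneSpring.

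Control spots and outlier spots were left out, spots of a probe were averaged (43603 probes, 165 lacking a value on some array) and log2 intensities were quantile-normalized. A model with a mean per line and temperature was fitted to all 18 arrays (limma 3.58.1, R 4.3.3), and two-sided p-values were Benjamini-Hochberg adjusted over all probes within a comparison. A probe was called where the adjusted p was under 0.05, whatever its fold. The code was tested on simulated data. Arrays have no read depth, so their number limits the precision, and p-values measure the spread between the samples labelled as replicates. No 2 arrays were duplicates (highest correlation 0.9925).

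The 4 probes, the lists of loci and the tests were chosen with earlier results of these data known. Named are the 4 probes, the 3 probes most like each, and pathway probes whose locus stands in the supplementary tables, all 16 being counted. Loci come from incomplete copies of those tables. None of the array's targets matched the reference table, so no sequence or position is given. Alternatives were other background corrections and scalings, the authors' values, detected probes only, replicate, slide and scan day blocks, fewer arrays in the fit, the methods' t-test, an adjusted p under 0.1 and leaving out each array. Random blocks used statmod 1.5.0, and figures matplotlib 3.10.9.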

Additional observations from a re-analysis of the deposited data

How the results depend on the processing

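Outside leave-one-out, 142 of 148 tested values of the 4 probes kept their direction and side of the threshold, 4 lost their call and 2 gained one. Of 48 genotype differences 46 moved by less than the replicate SD. The exceptions were the strictosidine synthase-like differences under normexp, 1.60 at 22 °C and 1.53 at 27 °C. Slide as a random block lost BETA-OHASE 1 (-0.62) and 4CL-like (-0.58) for 22 against 15 °C and gained TT7 for 27 against 22 °C (0.89), as did slide as a fixed block (0.89). Arrays of the second scan day alone, fewer in number and chosen after seeing the data, lost BETA-OHASE 1 (-0.53) and TT7 (-1.94) for 22 against 15 °C. They called 3292, 7771 and 1315 probes for 22 against 15, 27 against 15 and 27 against 22 °C, where all arrays called 7355, 12339 and 3113. In that fit the lone arrays of each line at 22 and 27 °C are assumed to vary like those at 15 °C. For 27 against 22 °C the count was 4722 with slide as a random block and 4739 at an adjusted p under 0.1. Beyond construction, the cause of these changes was not tested.

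With the replicate number as a block, 9607 probes were called for 22 against 15 °C, 14632 for 27 against 15 °C and 4801 for 27 against 22 °C. Without it the counts were 7355, 12339 and 3113. No call of the 4 probes changed. The deviations of same-numbered arrays from their group means correlated at -0.044 to 0.193 (median 0.078), over 0.1 in 17 of 45 pairs. Differently numbered arrays had a median of -0.0365 and exceeded 0.1 in 1 of 90 pairs. HT against HS at 15 °C exceeded 0.1 in 3 of 3 same-numbered pairs, and 17 of 18 arrays correlated best on average with their own number. Same-numbered arrays thus tended to deviate together, weakly, and the model without the block leaves this out. At 22 and 27 °C they also shared a slide, and what the numbers stand for was not tested.

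Leaving out 1 array each kept 209 of 216 tested values. Ranges were -0.71 to -0.49 for 4CL-like (22 against 15 °C, 5 calls lost), 0.71 to 0.99 for TT7 and 0.35 to 0.58 for BETA-OHASE 1 (27 against 22 °C, 1 call gained each), and -0.28 to 0.68 for the TT7 genotype difference at 15 °C. Scaling by the 75th percentile put the median of all probes at 0.093 and 0.1 for 22 and 27 against 15 °C. Quantile normalization gave 0.008 and 0.004. The scaling changed no call or direction of the 4 probes.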
